A study of Mus musculus with 5 samples.

Results

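The genes described here are 9 liver-enriched transcription factors that are not nuclear receptors: *Foxa1*, *Foxa2* and *Foxa3* of the FOXA family, *Onecut1* and *Onecut2* of the ONECUT family, *Cebpa*, *Cebpb* and *Cebpd* of the C/EBP family, and *Prox1*. They were chosen by name, with earlier results of these data known. All 9 were found among the 18820 genes that the arrays measured by at least 1 row with a single gene symbol. Each of the 9 had 1 such row. Livers came from adult C57BL/6 mice given subcutaneous injections on 4 days, with cull on day 5. Of these, 2 received phosphate-buffered saline (PBS) and 3 received CSF1-Fc, pig colony-stimulating factor 1 joined to part of a pig immunoglobulin, which prolongs its life in the circulation. Each liver sample gave 1 array, and the labels give no sex for these mice.

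Hepatocyte identity is held by a small group of DNA-binding proteins that act together on the same enhancers. FOXA proteins carry a winged-helix domain and open compact chromatin for other factors. ONECUT proteins (ONECUT1 is also called HNF6) join a cut domain to a homeodomain and act in hepatocyte and bile duct development. C/EBP proteins are basic leucine zipper factors: C/EBPα drives metabolic genes and restrains cell division, while C/EBPβ and C/EBPδ take part in the acute phase response. Myeloid cells also use all 3 C/EBP genes. PROX1 is a homeodomain protein of hepatocytes and of lymphatic endothelium that restrains bile acid synthesis.

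The bases before the start sites of 5 of the genes are shown, each for a reason. *Onecut1* varied most of the 9 between control livers, *Foxa2* is a described target of ONECUT1, *Prox1* and *Cebpa* were lower in every treated liver, and *Cebpb* is an immediate response gene. The stretches come from a set of RefSeq start sites (build GRCm38.p6) that held 7 of the 9 genes (all but *Onecut2* and *Cebpd*). Each shows the 250 bases before the outermost start, and for *Foxa2* and *Prox1* the set also held other start sites. The *Onecut1* stretch is chr9:74861671-74861920 on the plus strand. That of *Foxa2* is chr2:148046970-148047219 on the minus strand. That of *Prox1* is chr1:190170828-190171077 on the minus strand. That of *Cebpa* is chr7:35119043-35119292 on the plus strand, and that of *Cebpb* is chr2:167688665-167688914 on the plus strand. Capitals mark matches on either strand to any of 10 motifs.
Onecut1: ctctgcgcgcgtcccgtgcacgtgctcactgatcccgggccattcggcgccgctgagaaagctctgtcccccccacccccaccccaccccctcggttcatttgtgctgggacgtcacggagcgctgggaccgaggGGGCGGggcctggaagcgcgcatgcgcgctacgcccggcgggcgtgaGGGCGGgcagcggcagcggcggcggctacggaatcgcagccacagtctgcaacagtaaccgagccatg
Foxa2: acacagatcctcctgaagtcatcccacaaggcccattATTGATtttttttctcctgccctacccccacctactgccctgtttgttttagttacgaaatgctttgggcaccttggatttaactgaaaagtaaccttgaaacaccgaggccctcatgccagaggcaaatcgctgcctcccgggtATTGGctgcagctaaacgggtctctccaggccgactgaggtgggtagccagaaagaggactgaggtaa
Prox1: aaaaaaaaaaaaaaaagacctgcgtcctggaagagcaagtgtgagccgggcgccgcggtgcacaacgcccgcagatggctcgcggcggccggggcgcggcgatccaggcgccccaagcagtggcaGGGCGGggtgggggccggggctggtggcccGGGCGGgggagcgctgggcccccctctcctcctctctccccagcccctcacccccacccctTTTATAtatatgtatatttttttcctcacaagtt
Cebpa: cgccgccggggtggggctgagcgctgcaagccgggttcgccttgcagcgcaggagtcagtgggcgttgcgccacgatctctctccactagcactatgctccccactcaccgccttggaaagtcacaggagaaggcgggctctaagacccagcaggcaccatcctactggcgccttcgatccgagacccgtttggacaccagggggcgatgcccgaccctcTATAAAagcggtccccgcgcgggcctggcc
Cebpb: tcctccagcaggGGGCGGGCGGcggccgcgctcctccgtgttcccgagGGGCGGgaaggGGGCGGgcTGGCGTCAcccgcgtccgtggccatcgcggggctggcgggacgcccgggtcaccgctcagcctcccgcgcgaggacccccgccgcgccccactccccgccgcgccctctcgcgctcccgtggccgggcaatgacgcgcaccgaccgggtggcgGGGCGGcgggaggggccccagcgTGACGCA

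The stretch before *Foxa2* held 1 match to the ONECUT motif ATCAAT, starting at position -213 (the base before the start site being -1), and 1 CCAAT box at -68. The stretches before the other start sites listed for *Foxa2*, not shown, held neither motif. Of 32851 stretches of this length in the table, 6.72% held ATCAAT and 33.8% held CCAAT. The TATA motif TATAAA lay at -34 before *Prox1* and at -30 before *Cebpa*, and 12.4% of all stretches held it at any position. Before *Cebpb* lay 1 match to the CREB motif TGACGNCA at -183 and 1 to TGACGCA at -7, against 2.75% and 1.75% of all stretches. GGGCGG, bound by SP1, was found 2 times before *Onecut1*, 2 times before *Prox1* and 5 times before *Cebpb*, and 32.7% of all stretches held it. The C/EBP motif TTGCNNAA (9.56% of stretches), the STAT motif TTCNNNGAA (7.02%) and the FOXA motifs TGTTTAC (3.17%) and TGTTTGC (4.3%) had no match in these 5 stretches. The stretch before another start site listed for *Prox1*, not shown, held TGTTTGC at -120 and no TATAAA. A match is a run of letters only, and no binding was measured here.

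Values are log2 of the deposited normalized intensities, so that a difference of 1 is a doubling, and a level is compared only within a gene. The 5 arrays had median log2 intensities of 4.96 to 5.05. Log2 values correlated at 0.991 between the PBS arrays, at 0.983 to 0.990 between CSF1-Fc arrays and at 0.960 to 0.973 across groups. Groups were compared with limma, a linear model that borrows variance across rows, with p-values adjusted by Benjamini-Hochberg across the 35556 rows, and a gene is called where its adjusted p is under 0.05. With 2 mice against 3, an exact permutation test cannot go below 0.1.

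Among the 9 factors 1 was lower after CSF1-Fc and 0 were higher, and the other 8 did not pass. Over all genes 3.95% were called lower and 8.34% higher. At an unadjusted p under 0.05 from limma, 4 of the 9 factors were lower and 1 was higher, against 14.5% and 13.2% of all genes. The median log2 fold change of the 9 was -0.41, against -0.08 over all 18820 genes, and the 9 ranged from -1.004 for *Prox1* to 0.59 for *Cebpd*. For 4 factors (*Foxa1*, *Onecut2*, *Cebpa* and *Prox1*) every CSF1-Fc liver had a lower value than either PBS liver, an order that 29.3% of all genes showed. The opposite order held for 2 (*Foxa3* and *Cebpd*), as for 18.2% of all genes. The groups overlapped for *Foxa2*, *Onecut1* and *Cebpb*. In whole liver RNA, fewer hepatocytes and less of a transcript in each hepatocyte cannot be told apart.

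**Figure D1:**
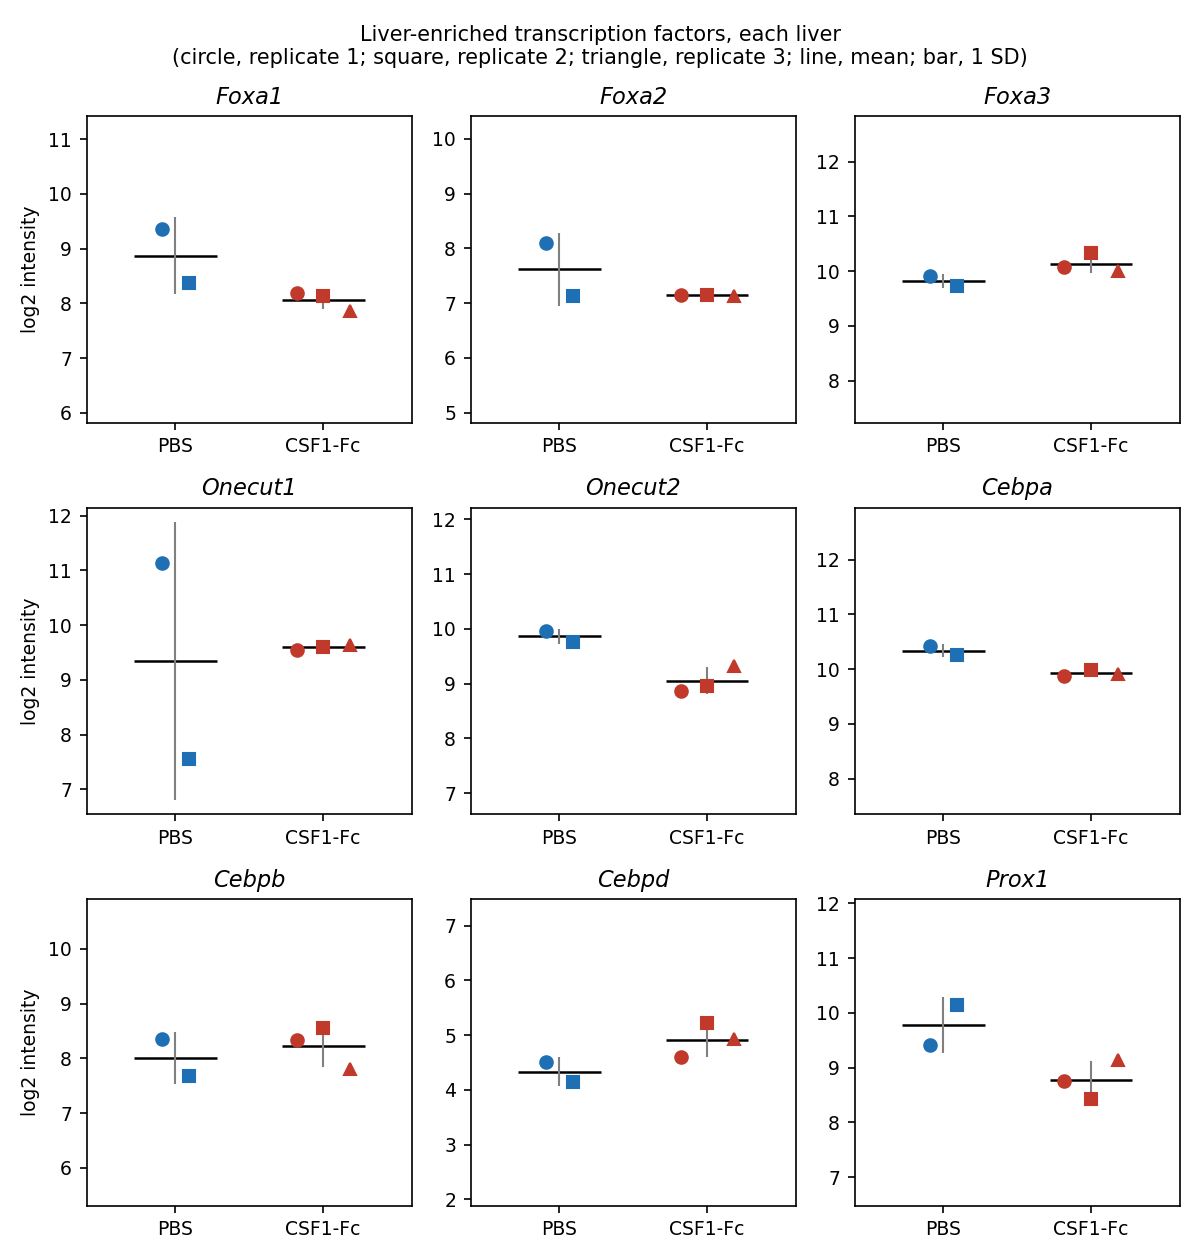
Log2 normalized intensity of each factor in each liver, PBS in blue and CSF1-Fc in red, with the mean and 1 SD; every panel spans the same number of log2 units. *Onecut1* lay at 11.14 and 7.55 in the PBS livers and between 9.55 and 9.64 in the CSF1-Fc livers, while *Onecut2*, *Cebpa* and *Prox1* were lower in every CSF1-Fc liver.

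Of the ONECUT genes, *Onecut2* fell after CSF1-Fc and *Onecut1* spread widely between control mice. *Onecut2*, a relative of *Onecut1* with overlapping roles in liver development, was at 9.96 and 9.77 in the PBS livers and at 8.87, 8.96 and 9.33 in the CSF1-Fc livers. Every treated liver lay below both controls. The log2 fold change was -0.81 (standard error 0.18, limma adjusted p = 0.0418), which is a level 0.569 times that of PBS livers, with a 95% interval of -1.24 to -0.38. This was the single call among the 9. It was lost without PBS replicate 1 (adjusted p = 0.227) and without PBS replicate 2 (0.162), as it was when the first (0.142) or the second (0.0869) CSF1-Fc liver was left out, while the log2 fold change stayed between -0.95 and -0.72.

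*Onecut1* was at 11.14 in PBS replicate 1 and at 7.55 in PBS replicate 2, a 12.0-fold difference between control mice. The CSF1-Fc livers were at 9.55, 9.60 and 9.64, a spread of 0.09, and all lay between the controls. The log2 fold change of 0.25 (standard error 0.93, limma adjusted p = 0.912) had a 95% interval of -1.99 to 2.49, which leaves its direction undetermined. Against PBS replicate 2 alone *Onecut1* was 2.05 higher (adjusted p = 0.00518), and against PBS replicate 1 alone it was at -1.54 (adjusted p = 0.0135). In both fits the lone PBS liver is assumed to vary like the CSF1-Fc livers.

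That gap of 3.59 log2 units was the third widest between the PBS livers among 18820 genes, for which the median was 0.15. Wider were those of *Cish*, an inhibitor of cytokine and growth hormone signalling, at 9.58 and 5.56 in PBS replicates 1 and 2, and of *Lcn2*, an acute phase lipocalin, at 10.86 and 7.24. After *Onecut1* came the acute phase genes *Saa2*, at 12.37 and 8.80, and *Orm2*, at 12.24 and 8.72. These 4 genes were chosen after their values were seen, and each was higher in PBS replicate 1, as *Onecut1* was. In CSF1-Fc livers *Cish* was at 8.47, 8.41 and 8.08, and *Lcn2* at 9.94, 9.26 and 9.34, all between the controls. *Saa2* was at 10.17, 9.95 and 8.78 and *Orm2* at 9.50, 8.25 and 8.73, so that 1 CSF1-Fc liver lay below both controls for each.

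**Figure D2:**
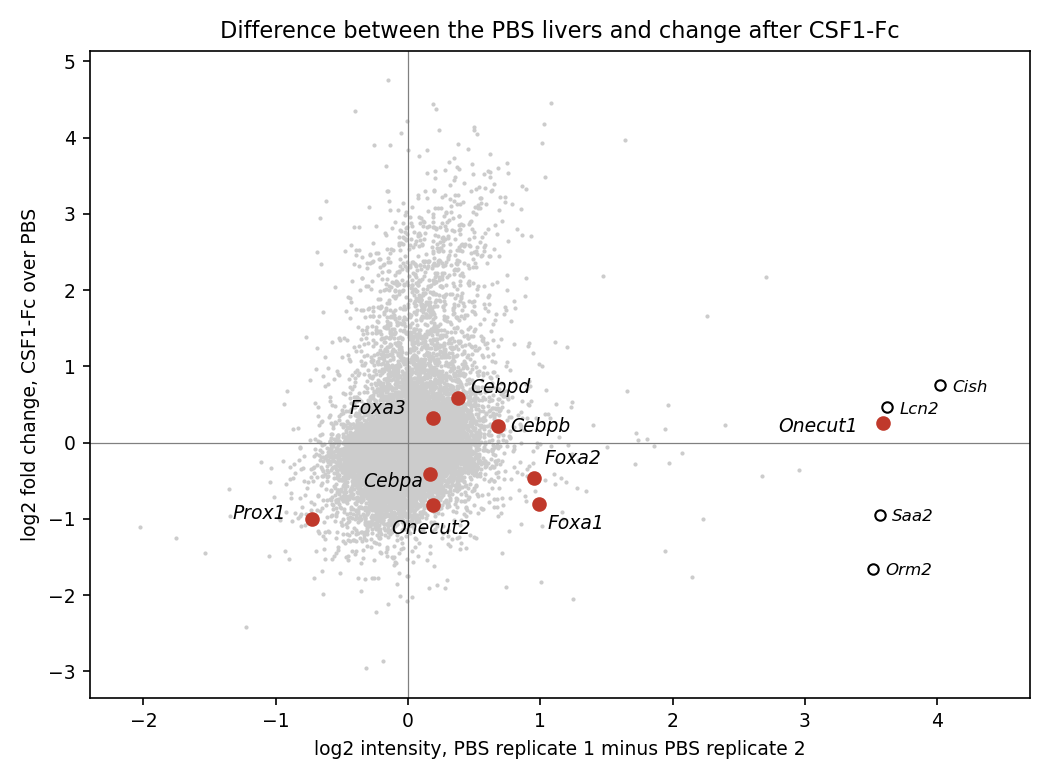
Each point is 1 gene; the horizontal axis is its log2 intensity in PBS replicate 1 minus that in PBS replicate 2, and the vertical axis shows how far the CSF1-Fc mean lay from the PBS mean (log2). Red points are the 9 factors and open circles 4 other genes with wide gaps; *Onecut1* lies at 3.59, beside *Cish*, *Lcn2*, *Saa2* and *Orm2*. Both axes use the same PBS arrays.

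In the FOXA family none of the 3 genes passed the test, and their fold changes had both signs. *Foxa1* was at 9.37 and 8.37 in the PBS livers and at 8.19, 8.13 and 7.87 in the CSF1-Fc livers. All treated values were below both controls, but 1 control lay close to them. The log2 fold change of *Foxa1* was -0.81 (standard error 0.29, limma adjusted p = 0.164). Without PBS replicate 2 the log2 fold change of *Foxa1* was -1.30 and was called (adjusted p = 0.0392), and without PBS replicate 1 it was -0.31.

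*Foxa2*, needed with *Foxa1* for the onset of liver development, was at 8.09 and 7.14 in the PBS livers and at 7.16, 7.16 and 7.13 in the CSF1-Fc livers. The treated livers matched PBS replicate 2 within 0.02, and PBS replicate 1 stood above all the others. The log2 fold change of -0.47 (standard error 0.27, limma adjusted p = 0.372) therefore rests on PBS replicate 1, and without it was 0.0095. *Foxa3*, which helps to sustain glucose release on fasting, was at 9.91 and 9.72 in the PBS livers and at 10.08, 10.33 and 9.999 in the CSF1-Fc livers. The fitted log2 difference was 0.32 (standard error 0.16, limma adjusted p = 0.282, 95% interval -0.05 to 0.70), with every treated liver above both controls. The PBS livers differed by 0.99 for *Foxa1* and by 0.95 for *Foxa2*, gaps that 71 and 79 of all genes reached, PBS replicate 1 being the higher for both, as for *Onecut1*. For *Foxa3* they differed by 0.19.

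Among C/EBP genes, *Cebpa* was at 10.42 and 10.25 in the PBS livers and at 9.87, 9.98 and 9.91 in the CSF1-Fc livers. The groups did not overlap and each was tight, with spreads of 0.17 and 0.11. The log2 fold change was -0.41 (standard error 0.13, limma adjusted p = 0.114), a level 0.75 times that of PBS livers, with a 95% interval of -0.73 to -0.10. It did not pass the test over all rows, but was called with array weights (adjusted p = 0.0277). Those weights were 4.19 for CSF1-Fc replicate 1 and 0.473 and 0.432 for replicates 2 and 3, so among treated livers that fit leans mostly on replicate 1.

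*Cebpb*, which is induced early in liver regeneration, was at 8.35 and 7.67 in the PBS livers and at 8.33, 8.55 and 7.81 in the CSF1-Fc livers. The groups overlapped, and the log2 fold change was 0.22 (standard error 0.29, limma adjusted p = 0.712, 95% interval -0.47 to 0.91). *Cebpd*, an acute phase member, was dim, at 4.52 and 4.14 in the PBS livers and at 4.60, 5.23 and 4.93 in the CSF1-Fc livers. All treated values were above both controls, the lowest of them narrowly, and the log2 fold change was 0.59 (standard error 0.22, limma adjusted p = 0.174). At such low intensity the size of a change is uncertain.

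*Prox1* was at 9.41 and 10.14 in the PBS livers and at 8.76, 8.42 and 9.14 in the CSF1-Fc livers. Every treated liver was below both controls, and PBS replicate 2 was here the higher control, unlike for the other 8 factors. The log2 fold change of -1.004 (standard error 0.29, limma adjusted p = 0.0925, 95% interval -1.70 to -0.31) was the lowest of the 9, at 0.499 times the PBS level. It was not called here, and was called in 4 of 15 alternatives, among them rows with a mean log2 of at least 5 (adjusted p = 0.0489), rows with 1 gene symbol (0.0243) and array weights over all rows (0.0233). Without PBS replicate 2 the log2 fold change was -0.64 (adjusted p = 0.443), and without PBS replicate 1 it was -1.37 (0.0886).

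**Figure D3:**
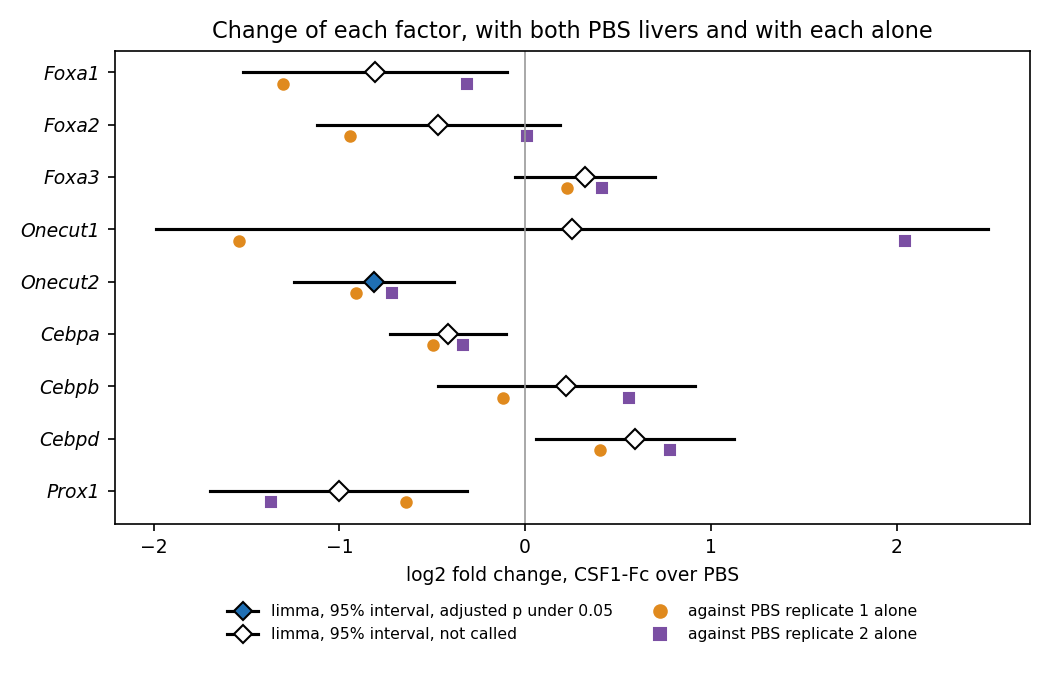
Log2 fold change of each factor, CSF1-Fc over PBS, with its 95% interval from limma (diamonds; filled where the adjusted p was under 0.05), and the same mean of 3 CSF1-Fc livers against each PBS liver alone. *Onecut2* at -0.81 is the filled point, and *Onecut1* spans -1.54 to 2.05 between the choices of control.

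Relatives within a family were also set against each other inside each array, over 7 pairs, with an exact two-sided permutation test over the arrays. The log2 difference *Foxa1* minus *Foxa3* was -0.54 and -1.35 in the PBS livers and -1.90, -2.21 and -2.13 in the CSF1-Fc livers. Its mean shifted by -1.13 after CSF1-Fc (exact p = 0.1, the smallest possible, adjusted p = 0.175). *Foxa2* minus *Foxa3* shifted by -0.79 and *Foxa1* minus *Foxa2* by -0.34, each with no overlap of groups and the same p. For *Foxa1* minus *Foxa2* the PBS livers were nearly equal, at 1.27 and 1.23, although each gene alone differed widely between them. *Cebpa* minus *Cebpd* shifted by -1.01 (exact p = 0.1, adjusted p = 0.175). The other 3 pairs overlapped between groups: *Cebpa* minus *Cebpb* at -0.64 (exact p = 0.3), *Cebpb* minus *Cebpd* at -0.37 (exact p = 0.4) and *Onecut1* minus *Onecut2* at 1.07 (exact p = 0.6). None of the 7 could pass after adjustment in this design.

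The genes whose values across the 5 livers were nearest to those of *Onecut2*, after each gene was centred on its mean, were *Tshz2*, *Palmd* and *Ddhd2*. Their root mean square differences from it were 0.05 log2 units for each, among genes with a mean log2 of at least 6. Their log2 fold changes were -0.76, -0.82 and -0.88 (limma adjusted p = 0.0404, 0.0315 and 0.0251), a likeness to *Onecut2* that the choice itself fixes.

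A list of 21 other transcription factors of hepatocytes had 19 measured genes, with a median log2 fold change of -0.86. Of these, 10 were called lower and 0 higher, against 3.95% and 8.34% of all genes, and 9 were without a call. The deepest was *Bcl6*, a repressor of fatty acid oxidation genes, at -2.42 (standard error 0.41, limma adjusted p = 0.0174), although its PBS livers differed, at 8.18 and 9.40. *Tbx3*, a T-box gene of the liver bud, was at -1.53 (adjusted p = 0.0481), with PBS livers at 8.07 and 8.97, and *Nfil3*, a repressor tied to the circadian clock, at -1.42 (adjusted p = 0.0325). Of 12 relatives of the 9 factors, 9 were measured, with a median of -0.27, and 1 of them was called lower, against 3.95% of all genes. The lower one was *Foxo1*, the forkhead target of insulin signalling, at -0.70 (standard error 0.14, limma adjusted p = 0.0271).

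Metabolic genes known as targets of these factors, 15 measured of 18 listed, gave 4 lower calls, 1 higher call and 10 genes without a call. Over all genes 3.95% were called lower and 8.34% higher. The median log2 fold change of the 15 was -0.82. For 13 the groups did not overlap, CSF1-Fc being the lower, an order that 29.3% of all genes showed. *G6pc*, the last enzyme of glucose release and a C/EBPα target, was at -2.22 (standard error 0.40, limma adjusted p = 0.0207). The glucose carrier *Slc2a2* and the pyruvate kinase *Pklr* were at -1.21 and -0.82 (adjusted p = 0.0313 and 0.0363). *Cyp7a1*, the first enzyme of bile acid synthesis and a gene that PROX1 represses, was the 1 that rose, at 0.61 (standard error 0.14, limma adjusted p = 0.0492). It was at 10.03 and 9.86 in the PBS livers and at 10.58, 10.42 and 10.66 in the CSF1-Fc livers, all above both controls. Whether the factors had a part in the levels of these targets was not tested, and *Prox1* itself was not called.

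Acute phase genes, targets of C/EBPβ and C/EBPδ, gave 0 higher and 0 lower of 15 measured by limma, with 1 higher and 1 lower at an unadjusted p under 0.05 and a median log2 fold change of -0.38. At that unadjusted p, 13.2% of all genes were higher and 14.5% lower. The lowest p was that of *Crp*, at -0.38 (limma adjusted p = 0.129). For *Saa2*, *Orm2*, *Lcn2* and *Saa3* the PBS livers differed too widely to resolve a change (standard errors 0.997, 0.965, 0.955 and 0.734). Each was negative against PBS replicate 1 alone and positive against PBS replicate 2 alone, *Lcn2* at -1.35 and 2.27. Of 15 genes of interleukin 6 and other inflammatory inputs to C/EBP genes, 2 were higher and 1 was lower, against 8.34% and 3.95% of all genes. The higher ones were *Tnf* at 1.30 and *Il6* at 0.91 (limma adjusted p = 0.0203 and 0.0208). The lower one was the interleukin 1 receptor *Il1r1* at -0.97 (0.0428). *Il6* was dim, at 3.17 and 3.49 in the PBS livers and at 4.40, 4.13 and 4.18 in the CSF1-Fc livers. Of 12 genes of cell division and growth arrest through which C/EBPα is known to act, 6 were higher and 0 were lower, against 8.34% and 3.95% of all genes. Their median log2 fold change was 0.60. Whether C/EBPα had a part in these levels was not tested, and *Cebpa* itself was not called. Whole liver RNA does not show which cells these transcripts came from. Of those called, the largest changes were those of *Rbl1*, a pocket protein, at 2.46, *E2f1* at 1.91 and *Ccnd1* at 1.46 (limma adjusted p = 0.000756, 0.000485 and 0.00903).

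**Figure D4:**
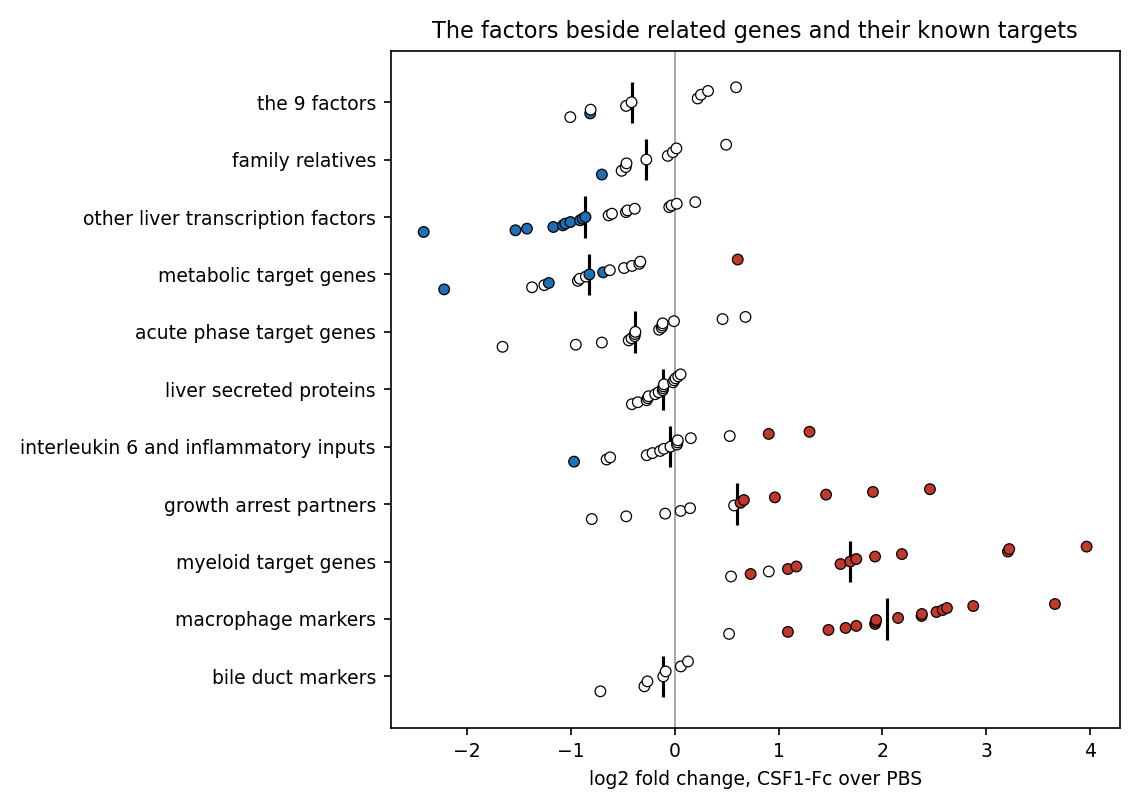
Log2 fold change, CSF1-Fc over PBS, of every measured gene of each list (1 point a gene), red where higher and blue where lower at an adjusted p under 0.05, with the median as a bar. The 9 factors have a median of -0.41, other liver transcription factors -0.86, metabolic targets -0.82 and macrophage markers 2.05.

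Cell type markers were measured in the same livers. Of 16 macrophage markers 15 were higher, and their summed level was 13.07 to 13.21 on the log2 scale in PBS livers and 15.19 to 15.30 in CSF1-Fc livers. The brightest in PBS livers were *Vsig4*, *Lyz2* and *C1qb*, with log2 fold changes of 1.65, 1.75 and 2.15. Of 13 neutrophil and promyelocyte markers 11 were higher, their sum being 8.08 to 8.60 in PBS livers and 11.05 to 11.32 in CSF1-Fc livers. The brightest of these, *Csf3r*, *S100a8* and *S100a9*, had mean log2 levels of 5.17, 5.10 and 4.95 in PBS livers. Myeloid target genes of C/EBP factors gave 11 higher and 0 lower of 13. All of them except *Il1rn* are also on the macrophage or neutrophil marker lists, so this count largely repeats theirs. It was led by *S100a8* at 3.97, *S100a9* at 3.22 and *Ngp* at 3.21 (limma adjusted p = 0.00387, 0.000357 and 0.00206). The part of these myeloid cells in the levels of *Cebpa*, *Cebpb* and *Cebpd* was not tested. Hepatocyte markers were bright in all livers, with a summed level of 16.04 to 16.10 in PBS livers and 15.81 to 15.93 in CSF1-Fc livers. The brightest were *Alb*, *Apoa1* and *Cyp2e1*, with log2 fold changes of 0.03, 0.0089 and -0.41, none called. Of 10 measured, 5 were lower and 0 higher at an unadjusted p under 0.05, against 14.5% and 13.2% of all genes. Only 1 was called, *Hpd* at -0.81 (limma adjusted p = 0.0106). Of 16 liver secreted proteins 0 were higher and 0 were lower by limma, 0 and 0 also at an unadjusted p under 0.05, with a median of -0.11. For 9 of them every CSF1-Fc liver lay below both PBS livers, and for 1 above, against 29.3% and 18.2% of all genes. The lowest p was that of *Plg*, plasminogen, at -0.41 (limma adjusted p = 0.253).

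The bile duct also expresses FOXA and ONECUT genes, and lymphatic endothelium expresses *Prox1*. Bile duct markers gave 0 higher and 0 lower of 7 by limma, with 1 lower at an unadjusted p under 0.05, against 14.5% of all genes. Their summed level was 8.04 to 8.08 in PBS livers and 7.51 to 7.84 in CSF1-Fc livers, and *Sox9* alone among them exceeded a log2 intensity of 6 in PBS livers, at -0.71 (limma adjusted p = 0.0547). *Krt7* and *Krt19* followed it, with mean log2 levels of 4.93 and 4.91 in PBS livers. Of 9 endothelial markers 1 was called lower, against 3.95% of all genes. It was *Clec4g* of sinusoidal endothelium, at -0.74 (limma adjusted p = 0.0176). The next brightest, *Stab2* and *Stab1*, were at -0.34 and 0.26 and not called. The lymphatic markers *Pdpn* and *Mmrn1* were dim in all livers, from 4.04 to 4.42 and from 3.48 to 3.78. *Flt4*, on the same list of lymphatic and sinusoidal markers, lay between 7.46 and 8.02 (log2 fold change 0.05). *Lyve1*, shared by lymphatic and sinusoidal endothelium, was at 7.59 and 7.67 in the PBS livers and at 8.99, 8.11 and 8.33 in the CSF1-Fc livers (0.84, limma adjusted p = 0.115), and *Pecam1* was also above both controls in every treated liver (0.36, adjusted p = 0.135). *Kdr* went the other way, below both controls in every treated liver (-0.95, limma adjusted p = 0.0538). The median log2 fold change of the endothelial list was 0.05, with 5 positive and 4 negative values. The summed level of that list, of which *Clec4g* is the brightest member, was nevertheless 11.75 to 11.89 in PBS livers and 11.41 to 11.59 in CSF1-Fc livers. The part of bile duct and endothelial cells in the levels of the factors was not tested.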

How the data were processed

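Liver RNA of 2 PBS and 3 CSF1-Fc mice (4 daily injections) was hybridised to Affymetrix whole-transcript arrays, 1 per mouse. The intensity values deposited by the authors are normalized and on a linear scale, and how they were corrected for background, normalized and summarised is not given in the sources used. RNA was amplified with a NuGEN kit per the labels, which can compress or stretch differences. The submitters' processing notes name Expression Console version 1.1. From these, log2 values were taken with no pseudocount or filter and fitted in limma 3.58.1 (R 4.3.3; lmFit, eBayes) over 35556 rows, with 3 residual and 3.34 prior degrees of freedom, and adjusted by Benjamini-Hochberg. A gene is its brightest row among the 21218 rows with 1 symbol in the platform annotation; 1881 rows had several symbols and 12457 had none listed. The 9 factors and the gene lists were chosen with earlier results of these data known, so list counts are descriptions. Every factor was named; in each list, the 3 called genes with the largest change in each direction, or the lowest p where none was called; in each marker list the 3 brightest in PBS livers; and the 3 genes most like a called factor. *Hpd*, *Pdpn*, *Mmrn1*, *Flt4*, *Lyve1*, *Pecam1*, *Kdr*, *Cish*, *Lcn2*, *Saa2*, *Saa3*, *Orm2*, *Foxq1* and *Hhex* were added after their values were seen. The fit was tested on simulated data. Arrays have no depth; their number limits the precision. Alternatives were other scalings, row filters, variance moderation, array weights, a replicate block and each mouse left out.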

Additional observations from a re-analysis of the deposited data

How the results depend on the processing

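The count of 1 lower factor, *Onecut2*, became 0 with arrays centred on liver secreted proteins (log2 fold change -0.70, adjusted p = 0.0529) and with no variance moderation (-0.81, adjusted p = 0.2). The count was 2 over rows with a mean log2 of at least 5, over rows with 1 gene symbol and with the mean over rows of a gene, *Prox1* being added each time, and 3 with array weights, where *Cebpa* and *Prox1* were added. With each mouse left out in turn the count of lower factors ranged from 0 to 2 and that of higher factors from 0 to 1. The 1 higher factor was *Onecut1* without PBS replicate 1 and the 2 lower ones *Foxa1* and *Onecut1* without PBS replicate 2. Leaving out 1 PBS liver also turned the sign for *Onecut1* (range with each mouse left out -1.54 to 2.05, negative without PBS replicate 2), *Cebpb* (-0.12 to 0.56, negative without PBS replicate 2) and *Foxa2* (-0.94 to 0.0095, positive without PBS replicate 1). The direction held in all alternatives for *Foxa1*, *Foxa3*, *Onecut2*, *Cebpa*, *Cebpd* and *Prox1*. Deviations of same-numbered livers from their group means correlated at -0.07 and -0.25. With 2 PBS livers their deviations mirror each other, so these values are not independent and cannot settle whether the numbers pair the mice. With the replicate block 1 factor was lower, *Onecut2* at -0.95 (adjusted p = 0.0464), and 0 were higher. Over all rows, centring on secreted proteins gave 2288 higher and 735 lower, and array weights 3416 and 3805, against 2052 and 1133. The array weights were 4.19 for CSF1-Fc replicate 1 and 0.473 and 0.432 for CSF1-Fc replicates 2 and 3. *Cebpd* falls out of the filter on dim rows. The option with each PBS liver alone as control was chosen after seeing the data.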

Other observations

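Among other liver transcription factors the PBS livers differed in both directions. *Foxq1*, a forkhead gene, was at 9.50 in PBS replicate 1 and 7.53 in PBS replicate 2, and at 8.97, 9.50 and 8.56 in CSF1-Fc livers. *Hhex*, a homeobox gene of early liver development, was at 9.53 and 8.56, and at 8.78, 9.25 and 8.95. For both the CSF1-Fc values overlapped the PBS values (limma adjusted p = 0.673 and 0.947). *Bcl6* and *Tbx3* differed the other way, by -1.22 and -0.90 for PBS replicate 1 minus PBS replicate 2.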
